A study of Mus musculus with 16 samples.

Results

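The expression of 42 transcription factors of the neural and neural-crest lineages was followed in mouse whole kidney at embryonic day 17.5. All 42 genes were on the array. Every non-control probe that carried a RefSeq accession of a member was taken, with no filter on dim probes, which gave 52 probes of the 56605 distinct probes measured (22911 symbols). Of the 42 genes, 10 had 2 probes (Barhl1, Ebf1, Ebf3, Isl1, Nkx2-1, Nkx2-2, Otx2, Pou4f1, Prdm12 and Zic2), and each of the others had 1.

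The 16 arrays fell into 4 genotypes of 4 arrays each, all on the C57BL/6 strain. In the double knockout, both Ezh2 alleles were deleted from Six2-positive nephron progenitors and both germline Ezh1 alleles were lost. The Ezh1-het group had the same Ezh2 deletion with 1 germline Ezh1 allele lost. The Ezh2-KO group had the same Ezh2 deletion with wild-type Ezh1. The controls were wild type, and for them the labels name no allele or Cre driver. Each array carried a sample in Cy5 and the RNA of control 1 in Cy3, so that control 1 was set against itself, and no dyes were swapped. Because Ezh2 was deleted from 1 progenitor population and Ezh1 in every cell, a whole-kidney value mixes cells that differ in genotype. In such bulk samples a change in the number of cells of a type and a change in RNA per cell cannot be told apart.

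Ezh1 and Ezh2 are the alternative methyltransferase subunits of Polycomb repressive complex 2, which places a repressive methyl mark on histone H3. Genes for developmental transcription factors, among them many that specify neurons, are textbook targets of this complex in tissues that do not use them. Proneural basic helix-loop-helix factors start neuronal differentiation, homeodomain factors of the Nkx, Dlx, Lhx, Engrailed and Otx families divide the neural tube into regions, and Sox10, Phox2a and Hand2 act in neural-crest derivatives. Several members also have roles outside the nervous system, such as Nkx2-1 in lung and thyroid or Nkx6-1 in pancreatic beta cells.

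The promoters of 3 members that rose are shown first, because Polycomb targets are known for promoters rich in the dinucleotide CG. RefSeq (GRCm38.p6) gave windows from 250 bases before to 50 bases after the annotated start for 32 of the 42 members (38 windows), among them 7 of the 10 genes called higher in the double knockout. Each is printed 5′ to 3′ on its gene's strand, which is the minus strand for all 3, and capitals mark every CG. CG reads the same on both strands.
Nkx6-1, chr5:101664662-101664961: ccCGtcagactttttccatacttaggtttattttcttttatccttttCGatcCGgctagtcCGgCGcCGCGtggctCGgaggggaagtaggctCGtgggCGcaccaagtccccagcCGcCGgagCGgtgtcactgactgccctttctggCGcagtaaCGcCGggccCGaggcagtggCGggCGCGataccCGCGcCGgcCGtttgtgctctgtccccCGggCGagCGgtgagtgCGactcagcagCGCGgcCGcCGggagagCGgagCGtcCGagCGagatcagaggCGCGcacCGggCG
Ebf3, chr7:137314396-137314695: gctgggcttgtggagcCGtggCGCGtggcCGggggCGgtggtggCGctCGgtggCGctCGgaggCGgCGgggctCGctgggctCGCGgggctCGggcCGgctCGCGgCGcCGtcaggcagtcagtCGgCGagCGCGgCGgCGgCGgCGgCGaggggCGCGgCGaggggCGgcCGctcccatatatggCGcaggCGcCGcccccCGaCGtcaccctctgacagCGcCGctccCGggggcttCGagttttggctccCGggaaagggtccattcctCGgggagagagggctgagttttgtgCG
Nkx2-1, chr12:56536859-56537158: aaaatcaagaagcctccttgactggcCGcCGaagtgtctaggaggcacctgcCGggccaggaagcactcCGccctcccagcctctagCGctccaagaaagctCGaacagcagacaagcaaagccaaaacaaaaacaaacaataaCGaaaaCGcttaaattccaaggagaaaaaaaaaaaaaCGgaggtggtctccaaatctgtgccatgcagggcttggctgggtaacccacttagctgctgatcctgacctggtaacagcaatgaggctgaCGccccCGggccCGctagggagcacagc

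The Nkx6-1 window held 40 CG dinucleotides, that of Ebf3 46 and that of Nkx2-1 12. The 8 windows of called genes held a median of 32.5 CG (12 to 46), and the 30 windows of the remaining members a median of 17.5 (6 to 57). Windows and not genes were counted, so a gene with several windows counts more than once. Such genes were Lhx2 among the called and Otx2 (6 to 16 CG), Barhl1 and Ebf1 among the others. Over all 32851 windows in the RefSeq table the median was 7, and 94.6% held at least 1 CG, as did 100% of the member windows. These counts describe the letters of each window, and neither methylation nor binding of any factor was measured.

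Arrays and samples were checked before the members were read. Ezh1 differed from control by -4.47 in the double knockout and by -1.05 in the Ezh1-het group (log2 scale, limma adjusted p = 5.01e-11 and 0.00119). The Ezh2 probe A_51_P248067 differed by -3.19, -3.53 and -3.41 in the double knockout, Ezh1-het and Ezh2-KO groups. The other 4 Ezh2 probes differed by less, from -0.53 to -0.22 in the double knockout, -0.58 to -0.34 in Ezh1-het and -0.41 to -0.27 in Ezh2-KO, and which probes lie in the deleted part was not analysed here. All 18 kidney markers (progenitor, podocyte, tubule, collecting duct and stroma) were well above background on at least 1 array, and 13 of them on all 16. Between 53.1% and 63.4% of all probes were well above background on an array, the fewest on control 2. Controls 2 and 3 had the most extreme scores on principal component 1 (-40.1 and -39.7, with 27.3% of the variance), so counts are also given without them. Each group had 2 arrays on either of 2 slides, replicates 1 and 2 on slide 1 and replicates 3 and 4 on slide 2.

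Most members gave little or no signal in these kidneys. Of the 52 probes, 23 were not well above background on any array, and 17 genes had no probe that ever was: En1, Ebf2, Neurog2, Neurog3, Atoh1, Olig1, Olig2, Nkx2-2, Pou3f2, Dlx1, Lmx1a, Otx1, Otx2, Gbx2, Tlx3, Prdm12 and Vax1. They include the proneural factors Neurog2 and Atoh1, the oligodendrocyte and motor-neuron factors Olig1 and Olig2, and the forebrain homeobox genes Otx1, Otx2 and Vax1. The 23 probes differed between double knockout and control by -0.09 to 0.12 on the log2 scale, and none passed the test in any comparison. A set of 7 genes had a probe well above background on all 16 arrays, namely En2, Neurod2, Nkx6-1, Sox1, Pou4f1, Barhl1 and Hand2.

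More member probes gave signal in double-knockout kidneys. The number well above background was 22, 22, 26 and 17 on the 4 double-knockout arrays and 14, 16, 13 and 14 on the Ezh1-het arrays. It was 16, 14, 14 and 16 on the Ezh2-KO arrays and 17, 9, 11 and 15 on the control arrays. The lowest double-knockout array and the highest control array had the same number, and the 2 lowest arrays were controls 2 and 3. On double-knockout arrays and no others, 10 probes were well above background. The share of all probes with this pattern was not counted. As the 10 were picked by their signal in the double knockout, a test against control adds no separate support for them. Of these, 7 passed the test in double knockout against control: Nkx2-1 (A_52_P216427) and Lhx2 on all 4 arrays, Ebf3 (A_65_P05399), Isl1 (A_66_P112935) and Zic1 on 3, Sox2 on 2 and Lhx5 on 1. The other 3 were Onecut1 and Zic2 (A_55_P1962523), each on 3 arrays, and Isl1 (A_52_P337246) on 1.

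**Figure D1:**
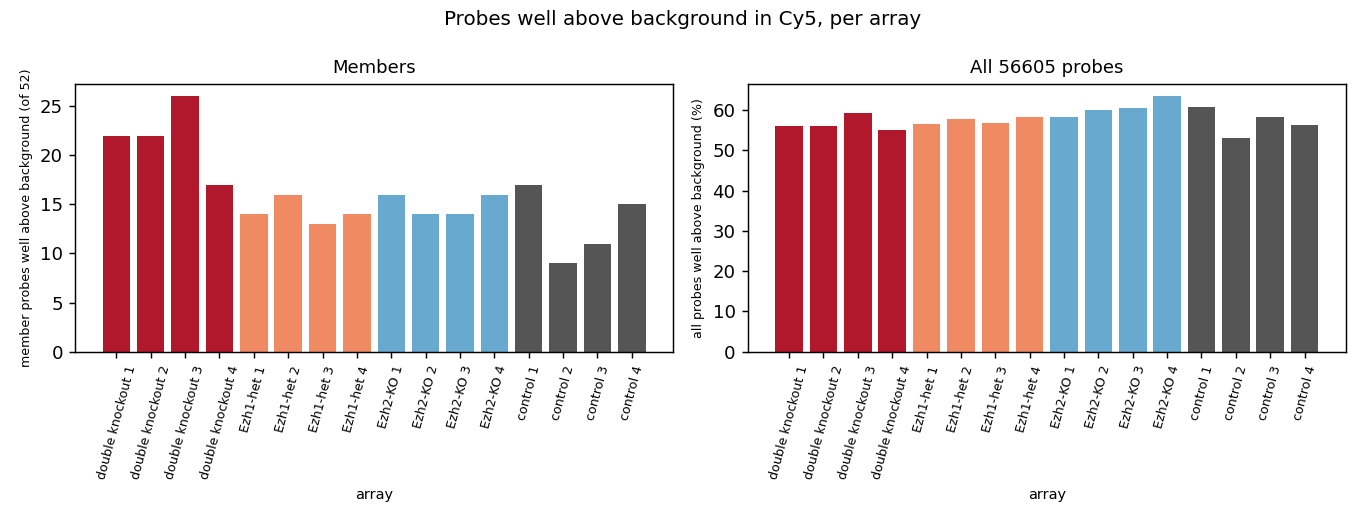
Number of the 52 member probes well above background in Cy5 (left, count) and share of all 56605 probes (right, %) on each array, one bar per array coloured by genotype. The double-knockout arrays had 17 to 26 member probes above background and the control arrays 9 to 17, while the share of all probes ran from 53.1% to 63.4% over all arrays.

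The comparison of double knockout with control asks what the joint loss of both methyltransferases did to these genes. In all, 12 probes of 10 genes were higher and none was lower: En2, Ebf3 (both probes), Onecut2, Nkx2-1 (both probes), Nkx6-1, Sox2, Isl1 (1 of 2 probes), Zic1, Lhx2 and Lhx5. The 12 higher probes are 23.1% of the 52, against 1.46% called higher and 0.364% called lower among all 56605 probes in this comparison (limma, Benjamini-Hochberg over all probes, threshold 0.05). Members and lists were chosen with earlier results of these data known. Their shares of called probes, here and below, are therefore no independent test of enrichment. With median centring in place of loess the split was 10 higher and 2 lower, in a setting that called 27.5% of all probes. Of these calls, 9 were shared with loess. The median difference over the 52 probes was 0.08, with a range of -0.27 to 2.08, and 41 of the 52 were above zero, against a median of -0.0038 and 48.6% above zero over all probes. In 13 probes every double-knockout array lay above every control array (3.97% of all probes), and in 1 probe, of Pou4f1, every one lay below (2.44% of all probes). Without controls 2 and 3, an alternative added after seeing the data, 7 of the 12 calls were kept. The calls of Sox2 (0.33), Lhx5 (0.32), Zic1 (0.50), Ebf3 A_65_P05399 (0.38) and Nkx2-1 A_66_P113793 (0.41) were lost, at adjusted p-values of 0.305, 0.114, 0.0552, 0.0764 and 0.0514.

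**Figure D2:**
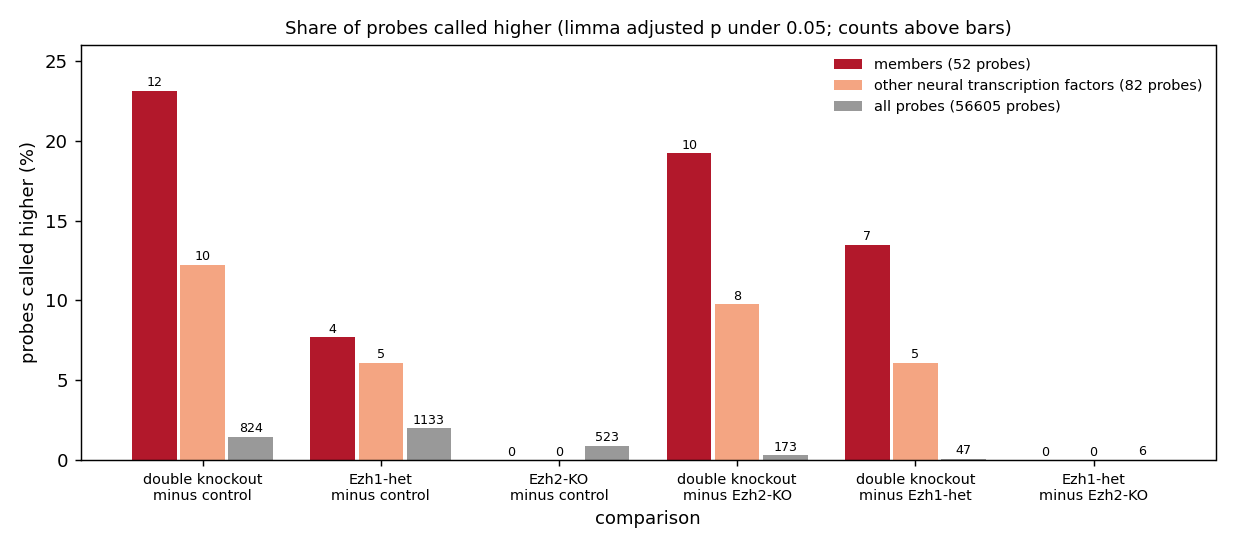
Percent of probes called higher (limma adjusted p under 0.05) in each of the 6 comparisons, for the 52 member probes, the 82 probes of other neural transcription factors and all 56605 probes, with counts above the bars. Members were called higher in 23.1% of probes in double knockout against control, where all probes stood at 1.46%, and in 0 probes in Ezh2-KO against control. Members and the second list were chosen with earlier results of these data known.

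En2, an Engrailed homeobox gene of the midbrain and hindbrain, was high in both groups that had lost Ezh1 alleles. Its log2 ratio to the control 1 RNA was 2.26, 1.71, 2.39 and 1.64 on the double-knockout arrays and 2.00, 1.78, 2.02 and 1.86 on the Ezh1-het arrays. Ezh2-KO arrays gave -0.20, 0.16, 1.43 and 1.23, and control arrays 0.15, -0.01, 0.00 and 0.16. Every double-knockout and Ezh1-het array lay above every Ezh2-KO and control array, and the Ezh2-KO arrays split by slide, with both low values on slide 1 and both high values on slide 2. Against control, En2 rose by 1.93 in the double knockout (SE 0.27, adjusted p = 0.000776) and by 1.84 in Ezh1-het (adjusted p = 0.00198), and the difference was 0.58 in Ezh2-KO (adjusted p = 0.309). The double knockout differed from Ezh1-het by 0.09 (SE 0.27, adjusted p = 0.965), an error that leaves room for a difference in either direction.

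The En2 difference between double knockout and Ezh2-KO was 1.35 (adjusted p = 0.0419), and it was 2.00 within slide 1 and 0.69 within slide 2. The call was lost on leaving out any 1 of Ezh2-KO 1, Ezh2-KO 2 and double knockouts 1, 2 and 3, with differences of 1.06, 1.18, 1.26, 1.44 and 1.21. The part of the slide in this result was not tested beyond these values. Its relative En1 was not well above background on any array and differed by 0.07 between double knockout and control.

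Nkx6-1, a homeodomain factor of the ventral neural tube and of pancreatic beta cells, showed the same order of group means as En2. Double-knockout arrays gave 1.07, 1.49, 1.44 and 0.73, Ezh1-het arrays 1.36, 1.13, 1.07 and 1.04, Ezh2-KO arrays -0.27, 0.22, 0.53 and 0.78, and control arrays 0.17, 0.38, -0.27 and 0.00. Double-knockout and Ezh1-het arrays stood above all controls, and double knockout 4 lay just below the highest Ezh2-KO array. Nkx6-1 rose by 1.11 in the double knockout (SE 0.20, adjusted p = 0.0063) and by 1.08 in Ezh1-het (adjusted p = 0.00904), with a difference of 0.24 in Ezh2-KO (adjusted p = 0.598). The double knockout differed from Ezh2-KO by 0.87 (adjusted p = 0.0855) and from Ezh1-het by 0.03 (SE 0.20, adjusted p = 0.986). As in En2, both lower Ezh2-KO values were on slide 1.

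Ebf3, a helix-loop-helix factor of migrating and differentiating neurons, had its largest values in the double knockout and intermediate ones in Ezh1-het. Probe A_51_P246543 read 2.15, 1.85, 1.95 and 1.88 in double-knockout kidneys and 0.58, 0.95, 1.02 and 0.92 in Ezh1-het kidneys. It read 0.15, 0.46, 0.92 and 0.48 in Ezh2-KO kidneys and -0.14, -0.29, -0.31 and 0.26 in control kidneys. All double-knockout arrays were above all others, while Ezh1-het and Ezh2-KO arrays overlapped.

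Against control, Ebf3 rose by 2.08 in the double knockout (SE 0.15, adjusted p = 5.6e-07) and by 0.99 in Ezh1-het (adjusted p = 0.00227). In Ezh2-KO the difference was 0.63 (adjusted p = 0.0501), the member probe nearest to the threshold there. The double knockout was also above Ezh2-KO by 1.45 (adjusted p = 7.79e-05) and above Ezh1-het by 1.09 (adjusted p = 0.00479), whereas Ezh1-het and Ezh2-KO differed by 0.36 (adjusted p = 0.832). The dimmer probe A_65_P05399 read 0.44, 0.36, 0.41 and 0.26 in the double knockout and -0.21 to 0.08 in Ezh1-het, -0.18 to 0.09 in Ezh2-KO and -0.05 to 0.01 in control. It was at least 1.31-fold higher in the double knockout than in control (difference 0.39, adjusted p = 0.00913), the control arrays being at background. The other family members did not pass the test: the Ebf1 probes differed by 0.13 and 0.07 and Ebf2 by 0.12 between double knockout and control.

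Onecut2, a cut-homeodomain factor of neurons and of the liver and pancreas, was graded in the same way. Its values were 1.36, 1.43, 1.54 and 0.99 in the double knockout and 0.51, 0.41, 0.74 and 0.63 in Ezh1-het. They were -0.14, -0.02, 0.24 and 0.21 in Ezh2-KO and 0.02, 0.09, -0.17 and 0.01 in control. The double-knockout arrays did not overlap the Ezh1-het arrays, which in turn did not overlap the Ezh2-KO and control arrays.

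Onecut2 rose by 1.34 in the double knockout (SE 0.11, adjusted p = 3.82e-06) and by 0.59 in Ezh1-het (adjusted p = 0.0119), and differed by 0.09 in Ezh2-KO (adjusted p = 0.771). The double knockout was above Ezh2-KO by 1.26 (adjusted p = 1.78e-05) and above Ezh1-het by 0.75 (adjusted p = 0.00979), a call lost without Ezh1-het 1, Ezh1-het 2 or double knockout 3 (0.73, 0.70 and 0.69). The step between Ezh1-het and Ezh2-KO was 0.50 (adjusted p = 0.374), although their arrays did not overlap. Its relative Onecut1 read 0.34, 0.18, 0.34 and 0.12 in the double knockout and -0.08, 0.09, -0.07 and 0.13 in control, and the difference of 0.23 did not pass (adjusted p = 0.162).

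Nkx2-1, which specifies ventral forebrain as well as lung and thyroid, was measured by 2 probes and both rose in the double knockout. Probe A_52_P216427 read 0.83, 0.80, 0.81 and 0.63 in the double knockout, against 0.01 to 0.06 in Ezh1-het, -0.05 to 0.09 in Ezh2-KO and 0.05 to 0.18 in control. It was well above background on all 4 double-knockout arrays and on no other array. It was at least 1.59-fold higher in the double knockout than in control, where the probe was at background (difference 0.66, SE 0.06, adjusted p = 5.12e-06). This bound is the fold of the ratio itself, so it carries sampling error and is no confidence limit.

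Nkx2-1 A_52_P216427 was also above Ezh2-KO (0.74, adjusted p = 3.58e-06) and above Ezh1-het (0.74, adjusted p = 1.43e-05). Probe A_66_P113793 read 0.37, 0.29, 0.40 and 0.16 in the double knockout, -0.36, -0.12, -0.31 and -0.11 in Ezh1-het, -0.16, -0.13, -0.07 and -0.20 in Ezh2-KO, and -0.02, 0.05, -0.24 and -0.20 in control. Here too the double-knockout arrays were above every other array. The rise against control was 0.41 (adjusted p = 0.0121), a call lost without double knockout 3, where it was 0.38, with median centring (0.35) and in a fit of the 2 groups alone. The related Nkx2-2 was not well above background on any array with either probe.

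Lhx2, a LIM-homeodomain factor of the forebrain and eye, read 0.59, 0.59, 1.04 and 0.51 in double-knockout kidneys. It ran from -0.14 to 0.10 in Ezh1-het, from -0.12 to -0.09 in Ezh2-KO and from -0.14 to 0.06 in control. No double-knockout array overlapped another group, and the probe was well above background on double-knockout arrays alone. Lhx2 was at least 1.62-fold higher than in control (0.70, SE 0.10, adjusted p = 0.000614). It was higher by 0.79 than in Ezh2-KO (adjusted p = 0.000505) and by 0.71 than in Ezh1-het (adjusted p = 0.00466).

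Isl1, a LIM-homeodomain factor of motor and sensory neurons, read 0.41, 0.51, 0.63 and 0.42 on probe A_66_P112935 in the double knockout. The other groups ran from -0.02 to 0.11 in Ezh1-het, -0.06 to 0.18 in Ezh2-KO and -0.15 to 0.00 in control, without overlap with the double knockout. It was at least 1.48-fold higher in the double knockout than in control (0.57, SE 0.07, adjusted p = 0.000132). The differences from Ezh2-KO (0.43, adjusted p = 0.00511) and from Ezh1-het (0.44, adjusted p = 0.00979) passed too, the second not without Ezh1-het 2 (0.41). The other Isl1 probe read 0.27, 0.14, 0.34 and -0.03 in the double knockout, overlapped all 3 other groups and differed from control by 0.21 (adjusted p = 0.284).

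Zic1, a zinc-finger factor of the dorsal neural tube, read 0.67, 0.47, 0.69 and 0.28 in the double knockout. The values in Ezh1-het were -0.14 to 0.16, those in Ezh2-KO -0.15 to 0.11 and those in control -0.05 to 0.06. All 4 double-knockout arrays were above the other 12. Zic1 was at least 1.44-fold higher than in control (0.52, SE 0.09, adjusted p = 0.0045), and it was higher than in Ezh2-KO (0.59, adjusted p = 0.00493) and Ezh1-het (0.53, adjusted p = 0.0298). The last call was lost on leaving out any 1 of 6 arrays, namely Ezh1-het 2, 3 and 4 and double knockouts 1, 2 and 3, with differences of 0.47 to 0.55. Its relative Zic2 differed from control by 0.16 and 0.10 on its 2 probes, neither of which passed.

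Sox2, a factor of neural progenitors and of pluripotent cells, read 0.76, 0.29, 0.51 and 0.28 in the double knockout, against -0.09 to 0.12 in Ezh1-het, -0.07 to 0.20 in Ezh2-KO and -0.07 to 0.17 in control. The groups did not overlap the double knockout, but its own 4 values were wide apart. Sox2 was at least 1.34-fold higher than in control (0.42, SE 0.10, adjusted p = 0.0374), and the call was lost without control 1, 2 or 3 or without double knockout 1 or 3 (0.43, 0.38, 0.40, 0.32 and 0.40). The differences from Ezh2-KO (0.41, adjusted p = 0.0979) and from Ezh1-het (0.48, adjusted p = 0.0897) did not pass.

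Lhx5, a LIM-homeodomain factor of forebrain neurons, read 0.45, 0.26, 0.42 and 0.33 in the double knockout, -0.02 to 0.13 in Ezh1-het, -0.05 to 0.09 in Ezh2-KO and -0.13 to 0.17 in control. It was well above background on 1 double-knockout array and nowhere else. It was at least 1.21-fold higher than in control (0.40, SE 0.07, adjusted p = 0.0063). The difference from Ezh2-KO was 0.37 (adjusted p = 0.0339), lost on leaving out any 1 of 7 arrays (all but double knockout 2, with 0.34 to 0.40), and that from Ezh1-het was 0.32 (adjusted p = 0.125).

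The background offset of 50 intensity units pulls ratios of weak spots toward zero, so the differences of dim probes are compressed. With the scanner software's own log ratio, which has no offset, 11 of the 12 calls against control passed as well, all but that of Nkx2-1 A_66_P113793 (adjusted p = 0.0882). Differences on that scale are given for En2 (2.99) and Nkx6-1 (1.41), the 2 called genes that were well above background on all 16 arrays. For probes at background in control that scale gives no size. A pass on it adds no separate support for the 7 called probes picked by their signal on double-knockout arrays alone. The same holds for these probes in the other comparisons with the double knockout.

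The software ratio also moved other calls below the threshold. Against Ezh1-het, the double knockout lost those of Ebf3 A_51_P246543 (adjusted p = 0.289), Onecut2 (adjusted p = 0.282) and Nkx2-1 A_66_P113793 (adjusted p = 0.198), so that 4 of the 7 calls were shared. Against Ezh2-KO it lost those of En2 (adjusted p = 0.114) and Nkx2-1 A_66_P113793 (adjusted p = 0.116). In Ezh1-het against control it lost those of Onecut2 (adjusted p = 0.0612) and Nkx6-1 (adjusted p = 0.0587). In double knockout against control, the calls of Sox2, Lhx5 and Nkx2-1 A_66_P113793 were lost with median centring (adjusted p = 0.0535, 0.0709 and 0.0538) and in a fit of the 2 groups alone.

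**Figure D3:**
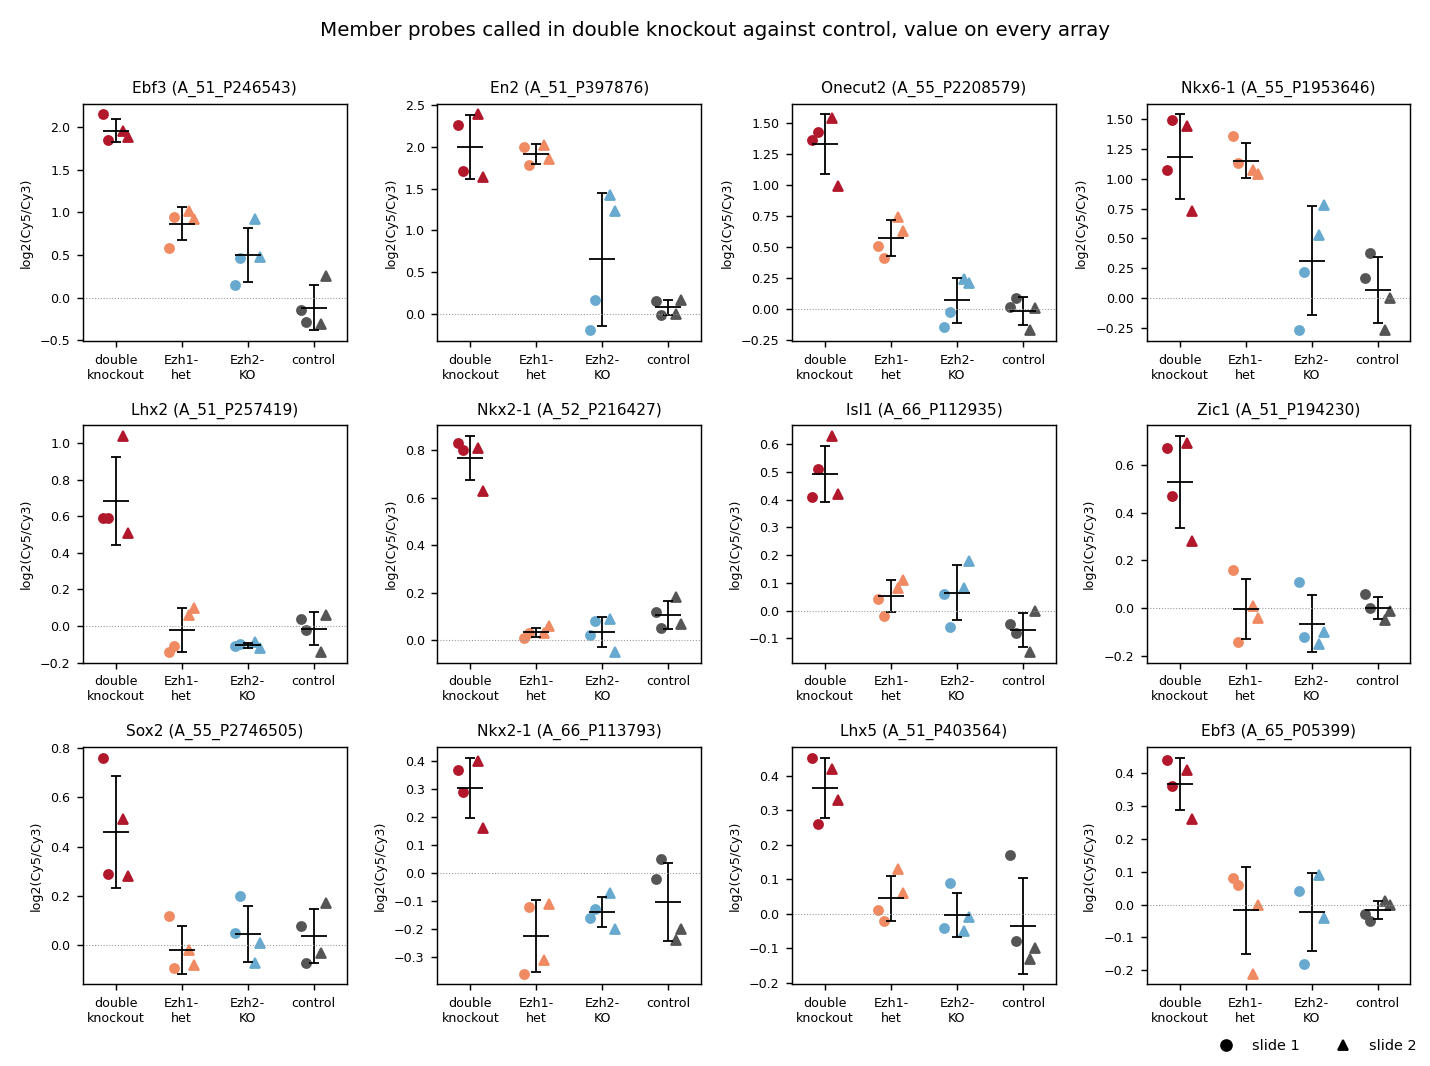
Log2(Cy5/Cy3) on each array for the 12 member probes called higher in double knockout against control, with circles for slide 1 and triangles for slide 2, a bar at each group's mean and error bars of 1 SD (n = 4). En2 and Nkx6-1 were at similar heights in double knockout and Ezh1-het, Ebf3 A_51_P246543 and Onecut2 were intermediate in Ezh1-het, and Nkx2-1, Lhx2, Isl1, Zic1, Sox2 and Lhx5 stood apart in the double knockout.

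The comparison of Ezh1-het with control reads the Ezh2 deletion and the loss of 1 Ezh1 allele together, since both differ between these groups. Loss of 1 Ezh1 allele with Ezh2 deleted in both groups is read between Ezh1-het and Ezh2-KO, below. In all, 4 probes were higher and none lower: En2 (1.84), Nkx6-1 (1.08), Ebf3 A_51_P246543 (0.99) and Onecut2 (0.59). They are 7.69% of the 52 probes, against 2.00% called higher and 1.15% called lower among all probes. With median centring the split was 4 higher and 23 lower, in a setting that called 52.0% of all probes. All 4 were also called in the double knockout, a comparison that shares the same controls. The median over the 52 probes was 0.01 (all probes -0.00046), 29 of them were above zero, and in 6 every Ezh1-het array lay above every control array (6.49% of all probes). Without controls 2 and 3 the En2 call alone was kept (1.76, adjusted p = 0.031), while Ebf3 (0.81, adjusted p = 0.0505), Nkx6-1 (1.07, adjusted p = 0.057) and Onecut2 (0.56, adjusted p = 0.0999) were not past the threshold.

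In Ezh2-KO against control, 0 of the 52 probes passed the limma test, where 0.924% of all probes were higher and 0.502% lower. With median centring 3 were higher and 22 lower, and 39.7% of all probes were called. At an unadjusted p under 0.05 there were 4 member probes: Ebf3 A_51_P246543 (0.63), En2 (0.58) and Phox2a (0.39) with positive differences and Sox10 (-0.23) with a negative one. Over all probes 9131 of 56605 were past that level, a larger share. The scanner software's ratio gave 0 calls, and Ebf3 was called in 1 or more alternatives, such as with the slide as a block. The median over the 52 probes was 0.01, 27 were above zero, and in 1 probe, of Atoh1, every Ezh2-KO array lay above every control array although the probe was at background on all of them (4.22% of all probes).

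The double knockout was set directly against the groups that kept Ezh1 alleles. Against Ezh2-KO, which tests the loss of both Ezh1 alleles with Ezh2 deleted in both groups, 10 probes of 8 genes were higher and none lower: En2, Ebf3 (both probes), Onecut2, Nkx2-1 (both probes), Isl1, Zic1, Lhx2 and Lhx5. They are 19.2% of the 52, against 0.306% of all probes higher and 0.115% lower. In 14 member probes every double-knockout array lay above every Ezh2-KO array (3.25% of all probes). The count was 6 without Ezh2-KO 2, without double knockout 1 or without double knockout 3.

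Against Ezh1-het, which tests the loss of the second Ezh1 allele, 7 probes of 6 genes were higher and none lower: Ebf3 A_51_P246543, Onecut2, Nkx2-1 (both probes), Isl1, Zic1 and Lhx2. They are 13.5% of the 52, against 0.0830% of all probes higher and 0.0353% lower, and 11 member probes did not overlap (2.82% of all probes). The count was 4 without Ezh1-het 2 or without double knockout 3. En2 and Nkx6-1, with differences of 0.09 and 0.03, were not among the 7.

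Between Ezh1-het and Ezh2-KO, 0 of the 52 probes passed the limma test, while 0.0106% of all probes were higher and 0.00883% lower. At an unadjusted p under 0.05 there were 8 member probes, led by En2 (1.26, adjusted p = 0.320), Nkx6-1 (0.84, adjusted p = 0.499) and Onecut2 (0.50, adjusted p = 0.374), and by the scanner software's ratio 0 were called. Over all probes 3358 of 56605 were past that level. In these 3 every Ezh1-het array lay above every Ezh2-KO array (1.80% of all probes), and in 2 probes, of Atoh1 and Nkx2-2 and both at background, every one lay below (1.81% of all probes). Within slide 1, 2 probes passed: En2 at 1.90 (adjusted p = 0.0198) and Nkx6-1 at 1.27 (adjusted p = 0.039), where 0.867% of all probes passed, against 0.0194% over both slides. Within slide 2 none did.

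**Figure D4:**
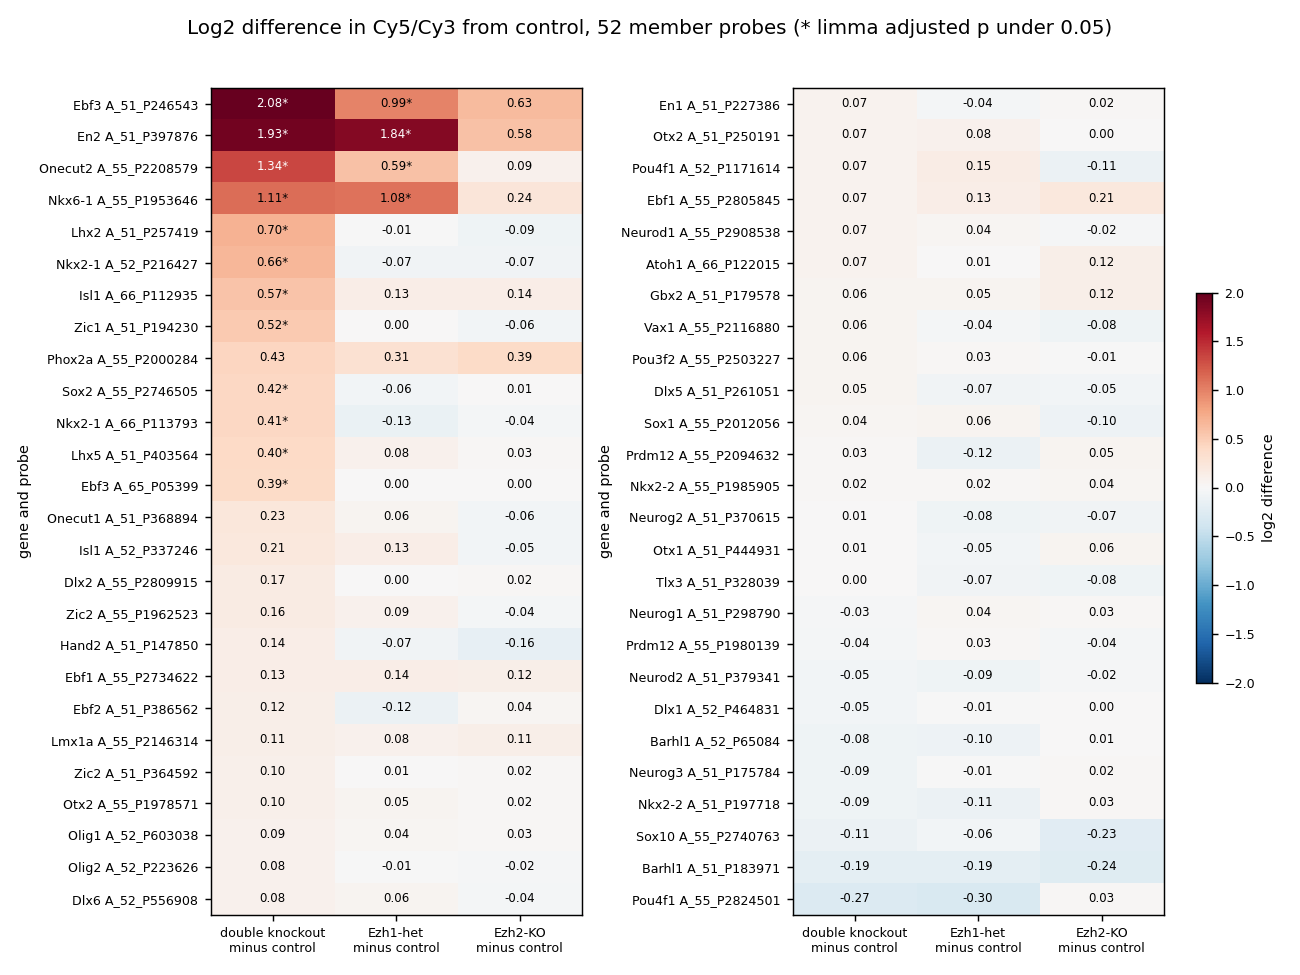
Log2 difference from control for each of the 52 member probes (rows) in the double knockout, Ezh1-het and Ezh2-KO (columns), coloured from blue (-2) to red (2), with a star where the limma adjusted p was under 0.05. Stars stand at 12 probes in the double knockout, 4 in Ezh1-het and 0 in Ezh2-KO, and no negative difference has one.

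The 40 probes that were not called in double knockout against control differed by -0.27 to 0.43, with standard errors that ran from 0.06 to 0.27 over the 52 probes. Phox2a, a determinant of noradrenergic neurons, had the largest of these values. It read 0.40, 0.37, 0.47 and 0.65 in the double knockout, 0.26, 0.33, 0.33 and 0.50 in Ezh1-het, 0.63, 0.59, 0.09 and 0.41 in Ezh2-KO, and -0.03, -0.12, 0.36 and -0.04 in control. Every double-knockout array was above every control array, but the difference of 0.43 did not pass (adjusted p = 0.0854), nor did 0.31 in Ezh1-het (adjusted p = 0.162) and 0.39 in Ezh2-KO (adjusted p = 0.112).

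A further 5 members were measured well above background on all 16 arrays without passing any comparison. Neurod2, a proneural-class factor of cortical neurons, read 0.02 to 0.38 in the double knockout, 0.06 to 0.25 in Ezh1-het, -0.08 to 0.35 in Ezh2-KO and -0.05 to 0.36 in control. Sox1, a factor of neural progenitors, read 0.00 to 0.24, 0.03 to 0.25 and -0.21 to 0.12 in the double knockout, Ezh1-het and Ezh2-KO, against -0.18 to 0.25 in control. In both genes all 4 groups overlapped.

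Hand2, a basic helix-loop-helix factor of sympathetic neurons, heart and limb, read 0.45, 0.19, 0.21 and 0.38 in the double knockout and 0.01, 0.11, 0.22 and 0.05 in Ezh1-het. It read 0.02, 0.16, -0.16 and -0.01 in Ezh2-KO and 0.08, 0.23, 0.31 and 0.04 in control. Double knockout and control overlapped (0.14, SE 0.08, adjusted p = 0.542).

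Pou4f1 and Barhl1 had probes that disagreed in signal. Pou4f1, a POU-domain factor of sensory neurons, read -0.26, -0.22, -0.35 and -0.44 in the double knockout on probe A_55_P2824501, and 0.08, -0.40, -0.51 and -0.59 in Ezh1-het. It read 0.25, 0.01, 0.18 and -0.51 in Ezh2-KO and -0.16, -0.01, -0.11 and 0.09 in control. All double-knockout arrays were below all controls, but the difference of -0.27 did not pass (SE 0.15, adjusted p = 0.516). Its other probe was well above background on no array and differed by 0.07. Barhl1, a homeobox gene of cerebellar granule cells and inner-ear hair cells, read -0.18 to 0.47 in the double knockout, 0.03 to 0.16 in Ezh1-het, -0.10 to 0.27 in Ezh2-KO and -0.24 to 0.87 in control on probe A_51_P183971. Its other probe, too, was never well above background.

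A second list held other neural transcription factors that are not members (61 genes on the array, 82 probes). Of its probes, 10 were higher in double knockout against control and none was lower, which is 12.2% of the 82. Those described here are Foxa2, Vax2, Pax3, Tbr1, Isl2, Pou3f1 and Sox3. Foxa2, a factor of the floor plate and of endoderm, read 1.67, 0.87, 1.31 and 1.00 in the double knockout and 0.20, 0.43, 0.48 and 0.61 in Ezh1-het, against -0.06 to 0.25 in Ezh2-KO and -0.22 to -0.02 in control. The double-knockout arrays were above all others, and Ezh1-het arrays were above all controls but overlapped Ezh2-KO.

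Foxa2 rose by 1.32 in the double knockout (SE 0.14, adjusted p = 3.46e-05) and by 0.54 in Ezh1-het (adjusted p = 0.0433). Vax2, a homeobox gene of the ventral eye, rose by 0.95 and 0.42 in these groups. Pax3, a factor of dorsal neural tube and neural crest, was at least 1.72-fold higher in the double knockout, Tbr1, of cortical neurons, at least 1.63-fold and Isl2, of motor neurons, at least 1.55-fold. Pou3f1, a POU-domain factor of neurons and Schwann cells, rose by 0.60 (adjusted p = 0.00536) and Sox3, of neural progenitors, was at least 1.49-fold higher (adjusted p = 0.0429). In Ezh1-het 5 probes of this list were higher and 1 lower (Foxd3, -0.23, at background on every array), and in Ezh2-KO 0 passed. Against Ezh2-KO the double knockout was higher in 8 of the 82 probes, and against Ezh1-het in 5. Of the 61 genes, 25 were never well above background.

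Markers of the cells in which these factors normally act were read on the same arrays. Of 15 neuronal genes, 4 rose in double knockout against control: Nefm (0.67, 1 of 2 probes), Uchl1 (0.63), Rbfox3 (0.60, 1 of 3 probes) and Gap43 (0.52). Dcx, a microtubule protein of young neurons, fell on both probes (-0.72 and -0.64). Of the 25 neuronal probes 4 were thus higher and 2 lower, where 1.46% and 0.364% of all probes were. Uchl1 had means of 0.49, 0.50 and 0.42 in the double knockout, Ezh1-het and Ezh2-KO, against -0.14 in control. Dcx A_52_P244349 had means of -0.93, -0.88 and -0.74 in these groups, against -0.21 in control. In Ezh1-het 3 of the neuronal genes rose and 2 fell, where 2.00% of all probes were higher and 1.15% lower. In Ezh2-KO 1 neuronal gene rose and 1 fell, where 0.924% of all probes were higher and 0.502% lower. The sum of Cy5 levels over the 15 neuronal genes ran from 15960 to 18910 intensity units on double-knockout arrays and 15180 to 17220 on Ezh1-het arrays. It ran from 14160 to 19330 on Ezh2-KO arrays and 16330 to 25160 on control arrays, with overlap between all 4 groups. Most of this sum came from Snap25 and Uchl1 (mean log2 Cy5 of 13.02 and 12.52 in the double knockout). The next brightest, Syp, stood at 9.12, so the sum says little about the other neuronal genes.

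None of the 8 Schwann-cell and glial genes, 10 chromaffin and sympathetic genes or 8 adrenal-cortex genes passed the test in double knockout against control, and in Ezh1-het Chga, of chromaffin granules, rose by 0.74 (adjusted p = 0.0386). The glial genes S100b, Erbb3 and Cdh19 and the adrenal genes Cyp11a1, Cyp11b1, Hsd3b1 and Mrap were at background on all 16 arrays. Summed Cy5 levels in the double knockout and control were 1201 to 1322 and 1059 to 1302 for the glial genes, 1335 to 1468 and 1428 to 1624 for the chromaffin genes, and 816.2 to 866.7 and 843.7 to 886.9 for the adrenal-cortex genes. Among the 18 kidney genes, Cited1, of nephron progenitors, fell in the double knockout (-0.90, adjusted p = 0.000811) and Pax8, of the nephron lineage, rose on 1 of 2 probes (0.62, adjusted p = 0.00331). The summed Cy5 levels of the kidney genes ran from 51500 to 63660 on double-knockout arrays, 59930 to 68940 on Ezh1-het arrays, 63380 to 75210 on Ezh2-KO arrays and 61000 to 83110 on control arrays. All such sums weigh the brightest genes most, here Six2, Wt1 and Eya1. The tubule genes Slc34a1 (-2.10 and -1.14 on its probes, adjusted p = 0.112 and 0.151) and Umod (-1.12, adjusted p = 0.219), chosen after their values were seen, did not pass. Double knockout and control overlapped in them through control 3 alone, which read -2.03 and -1.37 for Slc34a1 and -1.79 for Umod. Every double-knockout array lay below controls 1, 2 and 4. Whether the rises of the transcription factors lie in neural cells or in kidney cells was not tested, and the nearest values are these marker levels.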

How the data were processed

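Total RNA of 16 whole-kidney samples (the titles of the controls say kidney pairs) was measured on 2-colour Agilent arrays, the samples being grouped by the genotype in their titles. The deposited intensity values are median spot and background signals, where the design had named means, written by Agilent Feature Extraction 10.7.3.1 per the file headers and the submitters' processing notes. The deposited log10 ratio is that of the software's background-subtracted, dye-normalised Cy5 over Cy3, and the authors' value table equals it within rounding. Symbols were matched by accession to RefSeq (GRCm38.p6): 32994 probes received 1 symbol and none several.

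Background was corrected with normexp (offset 50), arrays were loess-normalised with control spots at weight 0, outlier-flagged spots (292 to 615 per array) were left out, and spots of a probe were averaged (limma 3.58.1, R 4.3.3). No spot was saturated. Group differences were tested two-sided with lmFit and eBayes in 1 fit of 16 arrays without covariates, over all 56605 probes, with Benjamini-Hochberg adjustment within each of 6 comparisons (threshold 0.05). All adjusted p-values come from this limma model. Fits were checked on simulated data. The series' design text speaks of biological replicates, so p-values reflect the spread among these samples. The number of arrays limits precision.

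A probe was well above background on an array by the software's Cy5 flag. Where no array of the dimmer group passed it, folds are bounds ("at least"): the brighter group's Cy5 mean (loess and Aquantile) was set against the higher of the probe's own level and the lowest level of any probe well above background. The smaller of that value and the fold of the ratio is printed. These bounds carry sampling error, are no confidence limits and are open to dye bias without swaps.

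Members and lists were chosen with earlier results of these data known. Per-array values are given for members with a called probe or a probe above background on all arrays, and for Phox2a, Onecut1 and the second probes, named after their values were seen. From other lists at most 8 genes called in double knockout against control are named, plus Foxd3, Chga, Slc34a1 and Umod. Some items of these lists are not reported here. Alternatives were median centring, the software's ratio, an offset of 10, a filter on dim probes, the brightest probe per gene, slide and replicate blocks, fits of 2 groups, trend and robust variance, array weights, Cy5 alone, each slide, each array left out and, added later, controls 2 and 3 left out. Array annotation was on mm9, so no coordinates are taken from the files.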

Additional observations from a re-analysis of the deposited data

Results flagged for a closer look

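In 5 of 68 sets of 4 arrays (17 named probes in 4 genotypes), 1 array lay farther from the other 3 than Dixon's critical value allows for the gap over the range. Chance gives about 1 in 20 such sets. Nkx2-1 A_52_P216427 was 0.63 on double knockout 4, below 0.80 to 0.83 on the other 3. Lhx2 was 1.04 on double knockout 3, above 0.51 to 0.59 on the others, and its rise against control without that array was 0.58. Lhx5 was 0.17 on control 1, whose array compares that RNA with itself, against -0.13 to -0.08 on the other controls. Barhl1 A_51_P183971 was 0.16 on Ezh1-het 2, against 0.03 to 0.04 on the others. The same probe was 0.27 on Ezh2-KO 3, against -0.10 to -0.04 on the others.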

How the results depend on the processing

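Counts of member probes called are given in the order double knockout, Ezh1-het and Ezh2-KO against control, double knockout against Ezh2-KO and against Ezh1-het, and Ezh1-het against Ezh2-KO. They were 12, 4, 0, 10, 7 and 0. With median centring they were 12 (10 higher, 2 lower), 27 (4 higher, 23 lower), 25 (3 higher, 22 lower), 11, 9 and 0. In that setting 27.5%, 52.0% and 39.7% of all probes were called in the 3 comparisons with control. The median of 15362 probes never above background was -0.27, -0.36 and -0.32 in these comparisons, against -0.01 in each with loess. Lhx5 in Ezh2-KO against control was -0.31 there (adjusted p = 0.0374) and 0.03 with loess.

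The software's ratio gave 2 calls in Ezh1-het against control. With the filter on dim probes, which keeps 18 member probes of 34731, the counts were 7, 4, 1, 6, 5 and 0. A probe was kept if well above background on at least 4 arrays of any group. Nkx2-1 A_52_P216427 and Lhx2 met this through the double-knockout arrays alone, so their calls in that fit add no separate support. Of all probes in that fit, 3.09%, 6.37%, 2.63%, 0.671%, 0.17% and 0.0317% were called. Ebf3 was the 1 call in Ezh2-KO against control with that filter, with the brightest probe per gene, with the slide block and with Cy5 alone. Fits of the 2 groups alone gave 5 in double knockout against Ezh2-KO. Slide 1 alone, with 2 arrays a group, gave 5, 1, 1, 6, 0 and 2 and slide 2 alone 3, 1, 0, 0, 0 and 0. Among all probes, slide 1 alone called 0.466%, 0.219%, 0.178%, 0.242%, 0.00707% and 0.867%. Slide 2 alone called 0.387%, 0.147%, 0.0618%, 0.0371%, 0.0053% and 0.0053%. Without controls 2 and 3 the first 2 counts were 7 and 1.

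Leaving out 1 array at a time gave 10 to 12, 4 to 4, 0 to 1, 6 to 10, 4 to 7 and 0. Deviations of same-numbered arrays of different groups had mixed correlations (-0.36 to 0.44), which cannot show whether the samples were paired. The main fit used no pairing, and the fit with the replicate block gave 12, 4, 0, 8, 7 and 0. The cause of these changes was not tested, apart from fewer probes or arrays in the filtered and reduced fits. For the 17 named probes, 2038 of 2202 values under alternatives kept direction and side of the threshold, 124 were no longer past it, 39 were newly past it and 1 reversed. Dim signal limits the 23 of 52 probes that were never above background.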
